A study of Bos taurus with 96 samples.

Results

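The 10 genes described here encode enzymes of glycerolipid assembly: GPAM, AGPAT9, AGPAT1, AGPAT2, AGPAT4, MBOAT1, MBOAT2, LPIN1, DGAT1 and DGAT2. They were chosen by name, and 23 probes of the bovine array were assigned to them, of the 34227 probes tested. All 10 had a probe, among 10658 genes named on the array. In fat cells a fatty acid is first joined to glycerol 3-phosphate, a second is added to give phosphatidate, the phosphate is removed to give diacylglycerol, and a last acyl transfer gives triacylglycerol, the storage fat. Each step has several isoforms encoded by separate genes. LPIN1, which encodes the phosphatidate phosphatase lipin 1, performs the phosphate removal and is not an acyltransferase, and MBOAT1 and MBOAT2 encode enzymes that transfer acyl chains to lysophospholipids.

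The samples came from steers of 3 genetic backgrounds, Angus, Hereford and WagyuxAngus. The steers of the fat samples were 26 months old, and the labels give 259 days in a feedlot for every sample, a number their age field repeats, although per the study's methods some LD samples came from an earlier slaughter. Intramuscular fat dissected from the longissimus (IMF), intermuscular fat (Inter), kidney fat (Kid), omental fat (Omen) and subcutaneous fat over the rump (SC) were each measured on 12 arrays, 4 per breed. These fat samples came from steers on pasture only in the time after weaning. The longissimus dorsi muscle with its fat in situ (LD) was measured on 24 arrays from steers on pasture and on 12 from steers given a supplement. The depots were sampled from the same steers, but the labels do not tie arrays to steers, so p-values over arrays treat the arrays as separate. The pasture LD arrays also mix 2 slaughter times that the labels do not give.

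A level is the log2 of an array's processed signal minus that array's 75th percentile over all non-control probes, so that 0 is the 75th percentile of the array. A difference is between mean levels, and 1 unit is a doubling. Between 66.2% and 96.5% of probes were well above background on an array. The SC arrays were dimmer than those of the other fat depots before scaling, with a median 75th percentile of 9.05 (log2) against 9.82 in IMF, 10.01 in Omen, 10.11 in Kid and 10.2 in Inter, and a median of 76.9% of probes above background against 82.7% to 83.7%. The part of this in the differences from SC was not tested. Every one of the 10 main probes was well above background on all 60 fat arrays, and 9 were on all 36 LD arrays, with MBOAT2 above on 35. Levels of different genes come from different probes, so no gene was ranked above another by level, and a ratio of 2 genes is read only as it differs between groups. In bulk tissue, fewer cells of a type and less RNA per cell cannot be told apart.

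The IMF arrays carried muscle RNA. The summed level of the skeletal muscle fibre markers, 11 of 13 listed genes with a probe, ran from 10.03 to 11.61 over the IMF arrays, against 1.04 to 1.82 over the SC arrays and 11.99 to 12.53 over the pasture LD arrays. All 11 were called higher in IMF than in SC and none was at background in IMF. The 7 adipocyte markers (among them ADIPOQ, PLIN1 and CIDEC) were all called lower in IMF than in SC, with summed levels of 7.32 to 9.25 against 9.27 to 9.93. The Inter arrays had summed muscle levels up to 9.71 and the Kid arrays up to 4.31. All 12 IMF arrays were scanned on day 3, all 12 Inter arrays on day 2 and 11 of the 12 SC arrays on day 1, so that day and depot cannot be told apart for most of these pairs.

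In a limma fit over the 60 fat arrays with breed as a covariate, 9 of the 10 genes differed among the 5 depots, AGPAT4 being the exception (adjusted p = 0.0796), against 87.2% of all probes tested. IMF had 4 of the 10 higher and 5 lower than SC (31.2% and 33% of all probes). Inter had 3 higher and 3 lower (21.6% and 27.2%), Kid 4 higher and 1 lower (19.4% and 22.2%), and Omen 4 higher and 3 lower (20.5% and 25.2%). The median difference over the 10 genes was 0.04 for IMF, 0.32 for Inter, 0.41 for Kid and 0.19 for Omen, beside 0, -0.05, -0.01 and -0.03 over all probes. The study selected AGPAT9, AGPAT4, MBOAT1 and MBOAT2, and AGPAT1 by another probe, for being higher in IMF than in SC on these same arrays, and lists AGPAT2 and DGAT2 among those lowest in IMF, so the direction of these genes in that comparison is not independent evidence. All of these comparisons share the SC arrays, and the study kept 1 probe per gene partly by the IMF and SC difference. With scan day as a block, which for IMF rests on the 1 SC array scanned on day 3, IMF minus SC kept MBOAT2, LPIN1 and DGAT2 alone of the 10, beside 6847 of the 34227 probes. The calls lost there had differences of 1.66 for AGPAT9, 1.22 for MBOAT1, -0.52 for AGPAT1, -1.23 for AGPAT2, -0.97 for GPAM and -0.43 for DGAT1. With scan day as a block over the 96 arrays 8 of the 10 and 17271 probes were called, and without that SC array 9 of the 10 and 21990 probes.

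**Figure D1:**
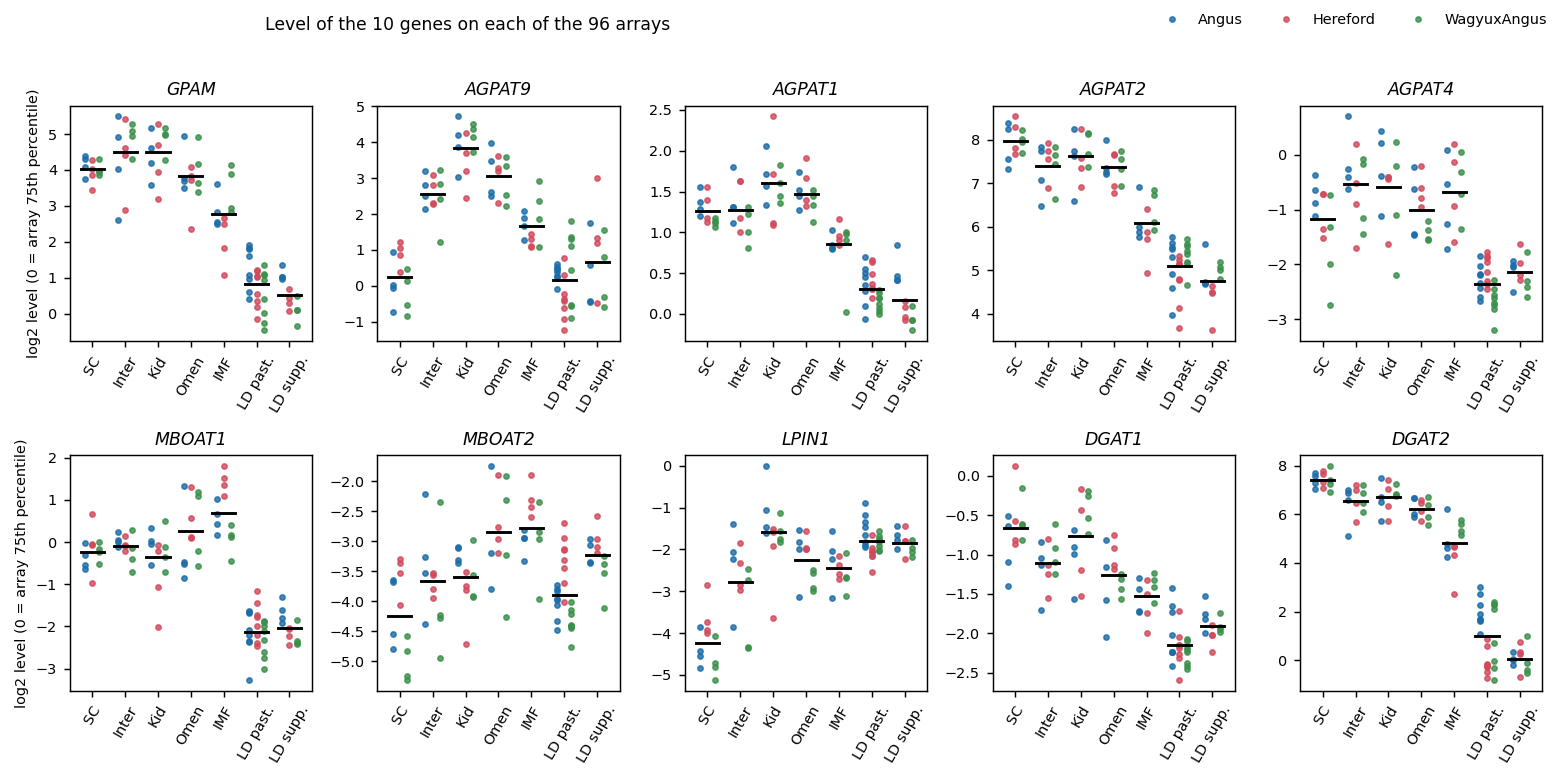
Level of each of the 10 genes (log2, 0 is the 75th percentile of the array) on every array, one panel per gene with its own axis; points are arrays coloured by breed, and black lines are group means. AGPAT9 and LPIN1 were lowest among fat depots in SC, with means of 0.24 and -4.24, while DGAT2 was highest in SC at 7.42.

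The first acylation joins a fatty acid to glycerol 3-phosphate. By main probes, AGPAT9 differed from SC in every other fat depot and GPAM in IMF alone. AGPAT9, now named GPAT3, encodes an isoform of the endoplasmic reticulum. Its level in SC ran from -0.83 through a median of 0.26 to 1.22. Kid ran from 2.44 through 4 to 4.72, Omen from 2.23 through 3.23 to 3.99, and Inter from 1.23 through 2.66 to 3.22. All 12 arrays of each of these 3 depots lay above all 12 SC arrays. IMF, from 1.07 through 1.55 to 2.93, overlapped SC, with 9 of its 12 arrays above every SC array.

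Kidney fat held 12.2 times the AGPAT9 signal of SC (difference 3.60, SE 0.27, limma adjusted p = 6.87e-10). The difference from SC was 2.81 for Omen (SE 0.25, adjusted p = 8.27e-09), 2.33 for Inter (SE 0.25, adjusted p = 1.3e-07) and 1.43 for IMF (SE 0.25, adjusted p = 2.61e-05). All 3 AGPAT9 probes were called in the same direction in the 4 comparisons. The order of the means was SC, IMF, Inter, Omen, Kid. Inter and Omen were neighbours that did not pass the test (difference -0.48, adjusted p = 0.155), whereas Kid exceeded Omen by 0.79 (adjusted p = 0.0368) and IMF lay 0.90 below Inter (adjusted p = 0.00127). With slide as a random block over the 96 arrays, and within scan day 1 for Kid (5 against 11 arrays, difference 3.63), the calls of Kid, Omen and Inter against SC held. The call of Kid over Omen was lost with slide as a random block (0.72, adjusted p = 0.26) and when scan day was blocked within the 2 depots (1.05, adjusted p = 0.145). For IMF the call was lost with scan day as a block over the 96 arrays (difference 0.73, adjusted p = 0.104).

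GPAM encodes the mitochondrial isoform of the same step. Its level ran in IMF from 1.08 through 2.74 to 4.14 and in SC from 3.44 through 4.00 to 4.38. Inter ran from 2.62 through 4.76 to 5.49, Kid from 3.19 through 4.65 to 5.28 and Omen from 2.35 through 3.75 to 4.94. The SC arrays were the most alike and lay within the range of Inter, Kid and Omen, while 9 of the 12 IMF arrays lay below all of SC. IMF was lower than SC by 2.35 times (difference -1.24, SE 0.25, adjusted p = 0.000114). The Inter, Kid and Omen differences from SC, 0.48, 0.49 and -0.18, did not pass (adjusted p = 0.139, 0.0561 and 0.491). Their 95% intervals were -0.07 to 1.04, 0.07 to 0.91 and -0.60 to 0.24.

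For the second acylation, of lysophosphatidate, the genes AGPAT2, AGPAT1 and AGPAT4 did not share a pattern. AGPAT2 is the isoform whose loss in people causes a congenital lack of fat. It ran from 7.33 through 7.99 to 8.54 in SC and from 4.94 through 5.97 to 6.91 in IMF, so that no IMF array reached the lowest SC array. Inter (6.47, 7.61 and 7.94 as lowest, median and highest), Kid (6.60, 7.66 and 8.25) and Omen (6.78, 7.34 and 8) overlapped SC. The IMF difference was -1.88 (SE 0.19, adjusted p = 5.81e-09), a level 3.69 times lower. Inter and Omen were lower by smaller amounts (-0.58, adjusted p = 0.00826, and -0.61, adjusted p = 0.00168), and Kid at -0.34 did not pass (adjusted p = 0.131). Both smaller calls were lost with slide as a random block, with differences of -0.49 and -0.53, and when scan day was blocked within the 2 depots the Omen difference was 0.06 (adjusted p = 0.953).

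AGPAT1, a broadly expressed isoform, has 2 probes with its RefSeq accession, and both were lower in IMF than in SC (differences -0.41 and -0.34). The main probe ran from 0.02 through 0.90 to 1.16 in IMF and from 1.06 through 1.19 to 1.56 in SC, with 11 of 12 IMF arrays below all of SC (SE 0.10, adjusted p = 0.00074). Kid ran from 1.09 through 1.59 to 2.42 and exceeded SC by 0.34 (adjusted p = 0.0257), on both probes. Omen exceeded it by 0.21 (adjusted p = 0.0425), a call that 1 of its 2 probes made and that held in 6 of 14 alternative settings on the main probe. Both calls were lost with slide as a random block (0.30 and 0.21), and within scan day 1 Kid exceeded SC by 0.64 with a call. Inter differed by 0.01 (95% interval -0.19 to 0.22).

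The probe that the study's tables list as AGPAT1 carries the accession of EGFL8, the gene next to AGPAT1 in the RefSeq annotation of ARS-UCD2.0. EGFL8 encodes a secreted protein with EGF-like repeats. Its probe moved the other way, from -0.54 through 0.00 to 0.38 in SC and from -0.62 through 0.85 to 3.29 in IMF (difference 1.11, SE 0.36, adjusted p = 0.00963). The spread over IMF arrays was 1.29 (SD) against 0.27 in SC, and 1 of 12 IMF arrays lay below all of SC while 8 lay above. The direction given for AGPAT1 in IMF thus turned with the probe, from lower on both probes with its accession to higher on the EGFL8 probe.

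AGPAT4 is an isoform best known from brain and muscle. Its arrays overlapped between every pair of fat depots. SC ran from -2.74 through -1 to -0.36, IMF from -1.72 through -0.62 to 0.20, Inter from -1.70 through -0.46 to 0.70, Kid from -2.20 through -0.40 to 0.44 and Omen from -1.55 through -1.08 to -0.20. The IMF difference from SC, 0.49 (SE 0.26, 95% interval -0.05 to 1.03), did not pass (adjusted p = 0.107). Inter passed narrowly at 0.64 (SE 0.27, adjusted p = 0.0474), and that call was lost with slide as a random block (0.69, adjusted p = 0.0929).

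The 2 MBOAT genes, of lysophospholipid remodelling, had their highest means in IMF and Omen by their main probes. The other MBOAT1 probes had their highest means in Inter, 0.65 and -1.97. They had 0.43 and -2.2 in IMF and 0.01 and -2.75 in Omen. By its main probe MBOAT1 ran from -0.45 through 0.55 to 1.80 in IMF and from -0.96 through -0.20 to 0.67 in SC. Of 12 IMF arrays 6 lay above all of SC (difference 0.92, SE 0.22, adjusted p = 0.000715). Its 3 probes agreed on IMF, at 0.89 to 0.97. They split on Inter, where the main probe gave 0.15 (adjusted p = 0.396) and the other 2 gave 1.11 and 1.2, both called. The main probe was named by the study alone, and the other 2 through RefSeq. On the highest-mean probe the Inter arrays ran from -0.24 to 1.14 and the SC arrays from -0.96 to -0.04, an overlap at one end. For Kid the main probe gave -0.12 and the highest-mean probe 0.43, and for Omen the main probe gave 0.49 without a call. All 5 smooth muscle markers were called higher in IMF than in SC, and their part in the MBOAT differences was not tested.

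MBOAT2 had a dim probe. Its level ran from -5.31 through -4.30 to -3.30 in SC and from -3.96 through -2.83 to -1.90 in IMF, and 10 of 12 IMF arrays lay above all of SC (difference 1.46, SE 0.25, adjusted p = 1.88e-05). Omen exceeded SC by 1.39 (SE 0.31, adjusted p = 0.000711), with 1 Omen value left out as an outlier spot. The mesothelial markers, 2 of 5 listed with a probe (MSLN and UPK3B), had summed levels of -1.90 to 2.22 over the Omen arrays against -1.22 to -0.46 over SC, with 1 of the 2 called higher in Omen, and their part in the Omen differences was not tested. Kid exceeded it by 0.65 (adjusted p = 0.0334), a call lost with slide as a random block (0.61, adjusted p = 0.118) and a difference that turned to -0.20 with normexp, another background correction. With normexp the IMF difference was 0.41 and the Omen difference 0.46, both still called, and when scan day was blocked within the 2 depots the Omen call was lost (1.84, adjusted p = 0.162). Inter at 0.57 did not pass (adjusted p = 0.116).

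LPIN1, like AGPAT9, was lowest in SC among the fat depots. SC ran from -5.12 through -4.24 to -2.84. Kid ran from -3.63 through -1.57 to -0.01, Omen from -3.14 through -1.98 to -1.53, IMF from -3.15 through -2.49 to -1.56 and Inter from -4.36 through -2.59 to -1.39. Above every SC array lay 11 of 12 Kid arrays, 10 of IMF, 9 of Omen and 7 of Inter. LPIN1 was 6.26 times higher in Kid than in SC (difference 2.65, SE 0.28, adjusted p = 1.27e-07). Omen exceeded SC by 1.99 (adjusted p = 3.31e-07), IMF by 1.79 (adjusted p = 1.21e-07) and Inter by 1.45 (adjusted p = 0.000553). All 3 LPIN1 probes were called in these 4 comparisons, the others with larger differences, up to 3.51 in Kid. With normexp background correction the main probe gave 1.45 for Kid, 0.87 for Omen, 0.75 for IMF and 0.49 for Inter, all still called. The calls against SC also held with slide as a random block and with scan day as a block where one could be fitted. Kid also exceeded Inter (Inter minus Kid -1.2, adjusted p = 0.0236), a call lost when scan day was blocked within the 2 depots (-1.08, adjusted p = 0.122), whereas Kid and Omen did not differ past the test (0.65, adjusted p = 0.116).

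The last step is shared by DGAT1 and DGAT2, which are unrelated in sequence. DGAT2 was lower in every depot than in SC by its main probe. It ran from 6.92 through 7.35 to 7.98 in SC, from 5.72 through 6.78 to 7.48 in Kid, from 5.11 through 6.72 to 7.21 in Inter, from 5.54 through 6.27 to 6.71 in Omen and from 2.72 through 4.73 to 6.21 in IMF. Neither the Omen arrays nor the IMF arrays reached the lowest SC array. The IMF difference was -2.58 (SE 0.26, adjusted p = 9.18e-09), a level 5.98 times lower. Omen was lower by 2.28 times (-1.19, adjusted p = 7.06e-07), Inter by 1.83 times (-0.88, adjusted p = 0.000874) and Kid by 1.63 times (-0.71, adjusted p = 0.00343). With slide as a random block, Inter and Kid lost their calls at differences of -0.90 and -0.68, IMF and Omen kept theirs, and when scan day was blocked within the 2 depots Omen lost its call (-1.01, adjusted p = 0.13). The highest-mean DGAT2 probe gave -0.27 for Kid (adjusted p = 0.158) and smaller called differences for the other 3. Of the 7 adipocyte markers, 3 were called lower than in SC in Inter, 3 in Omen and 2 in Kid. In Inter and in Omen 1 was called higher. Their part in the AGPAT2 and DGAT2 differences was not tested.

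DGAT1 differed less. It ran from -1.40 through -0.63 to 0.12 in SC and from -1.99 through -1.47 to -1.24 in IMF, and 8 of 12 IMF arrays lay below all of SC (difference -0.86, SE 0.13, adjusted p = 3.53e-06). Omen was lower by 1.51 times (-0.60, adjusted p = 0.0024), but when scan day was blocked within the 2 depots the difference was -0.05 (adjusted p = 0.955). Inter was lower by 1.36 times (-0.44, adjusted p = 0.0121, lost with the slide block). In Kid the difference was -0.10 (95% interval -0.46 to 0.26). The other DGAT1 probes were dimmer, with means of -3.13 and -4.75 in SC and -3.23 and -4.92 in Inter. They had -3.28 and -4.77 in Kid, -3.65 and -5.08 in Omen and -3.64 and -5.28 in IMF.

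**Figure D2:**
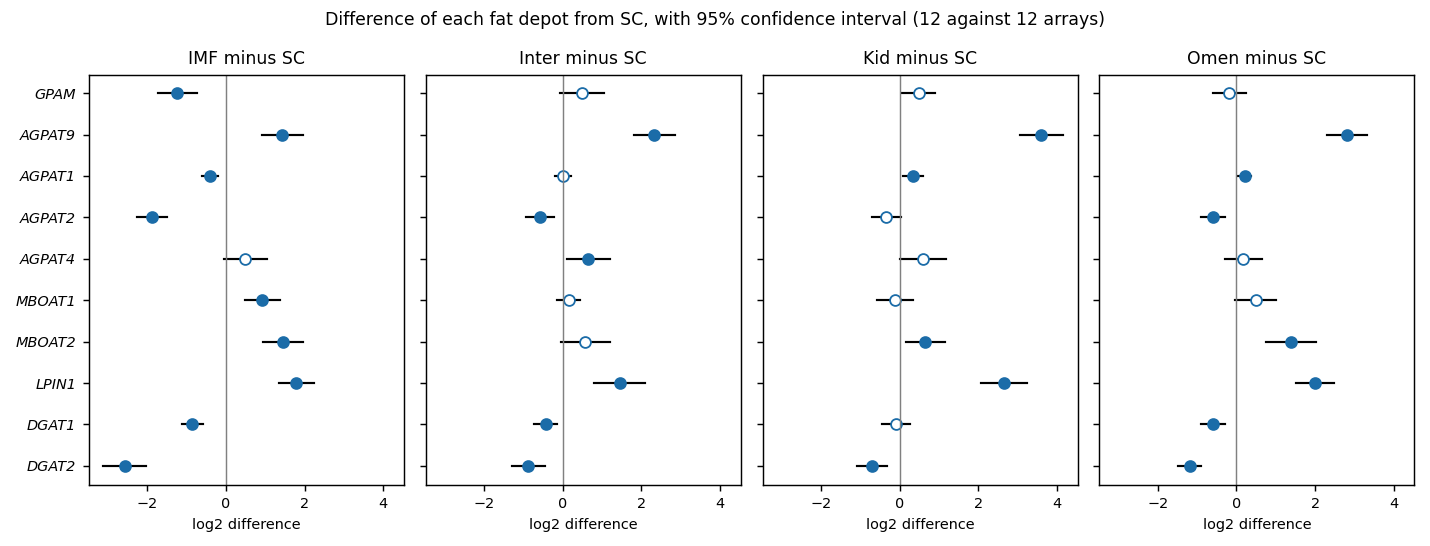
Difference in mean log2 level between each fat depot and SC for the 10 genes (12 against 12 arrays, 11 for MBOAT2 in Omen); points are limma estimates, bars are 95% confidence intervals, and filled points passed an adjusted p of 0.05. AGPAT9 and LPIN1 lay to the right of 0 and DGAT2 to the left in all 4 panels.

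IMF was also compared with the other depots, where large shares of all probes differed. Of the 10 genes, 8 differed between IMF and Inter (62.7% of all probes), 9 between IMF and Kid (55.8%) and 5 between IMF and Omen (56.2%). GPAM, AGPAT9, AGPAT1, AGPAT2 and DGAT2 were lower in IMF than in each of the 3. With scan day as a block over the 96 arrays the AGPAT1 difference from Inter was -0.21 (adjusted p = 0.209, -0.42 without the block) and that of DGAT1 -0.28 (adjusted p = 0.181), both calls lost. DGAT2 lay between 1.39 and 1.87 below them. MBOAT1 and MBOAT2 were higher in IMF than in Inter (0.77 and 0.88) and Kid (1.05 and 0.81), and neither was called against Omen. The other 2 MBOAT1 probes gave -0.23 each for IMF minus Inter, without a call. With scan day as a block, which for Kid rests on 1 Kid array scanned with the IMF arrays, no call remained between IMF and Kid, beside 1694 of all 34227 probes, though DGAT2 was still -1.86 (adjusted p = 0.162) and AGPAT9 -2.19 (adjusted p = 0.0521). With scan day over the 96 arrays 9 genes and 17910 probes were called there. Within scan day 3 (12 IMF against 10 Omen arrays) 6 genes were called lower in IMF, beside 19096 probes called in either direction. Among Inter, Kid and Omen few differences passed: AGPAT9 and LPIN1 were lower in Inter than in Kid (15.4% of all probes), none of the 10 differed between Inter and Omen (13.6%), and AGPAT9 was higher in Kid than in Omen (12.1%). With slide as a random block neither AGPAT9 call was made (Inter minus Kid -1.05, adjusted p = 0.0828), and MBOAT2 was called lower in Kid than in Omen (-0.97, adjusted p = 0.0461). Between Inter and Omen GPAM, AGPAT9 and MBOAT2 had an unadjusted p under 0.05.

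The balance of isoforms within an array was compared for 5 pairs, since array scaling cancels in such a ratio. The ratio of AGPAT9 to GPAM was higher than in SC by 3.11 in Kid (log2 scale, 8.66 times), by 2.99 in Omen and by 1.84 in Inter. A two-sided permutation test with 100000 resamples, adjusted over 15 values, gave adjusted p = 0.00015, 0.00015 and 0.0004. For Kid and Omen the unadjusted p, 2e-05, was the smallest these resamples can give. All 12 Kid and 11 of 12 Omen arrays exceeded every SC array. This test takes arrays as separate and ignores slide and scan day.

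The other pairs moved by less. DGAT1 over DGAT2 was higher than in SC by 0.43 in Inter, 0.60 in Kid and 0.59 in Omen (adjusted p = 0.0112, 0.00433 and 0.00138). AGPAT1 over AGPAT2 was higher by 0.59, 0.68 and 0.82 (adjusted p = 0.0288, 0.0208 and 0.00075), and AGPAT4 over AGPAT2 by 1.22, 0.93 and 0.78 (adjusted p = 0.00334, 0.0126 and 0.0112). MBOAT2 over MBOAT1 was higher by 0.77 in Kid and 0.84 in Omen (adjusted p = 0.00433 and 0.00334) but not past the test in Inter (0.42, adjusted p = 0.136). For Kid and Inter that last ratio turned sign with normexp correction, and for Inter with another MBOAT1 probe as well. With normexp it was 0.05 in Omen (adjusted p = 0.813). With the highest-mean DGAT2 probe none of the DGAT1 over DGAT2 differences passed (0.05, 0.17 and 0.18 in Inter, Kid and Omen, adjusted p = 0.669, 0.367 and 0.242). In all, 14 of 15 passed with the main probes over arrays. With the means per slide as the unit (4 or 5 slides of a depot against 4 of SC, exact permutation) none of the 15 passed after adjustment and 7 had an unadjusted p under 0.05. The AGPAT9 over GPAM differences were then 1.97, 3.08 and 2.98 in Inter, Kid and Omen (exact adjusted p = 0.0612 for each). Within scan day 1, 3 of the 5 ratios passed for Kid (5 against 11 arrays, exact permutation adjusted over 5), AGPAT9 over GPAM at 3.31 (exact adjusted p = 0.00229), AGPAT1 over AGPAT2 at 1.09 and DGAT1 over DGAT2 at 0.57. In IMF, given without a test, the same ratios exceeded SC by 2.66, 1.72, 1.48, 2.37 and 0.53 in the order AGPAT9 to GPAM, DGAT1 to DGAT2, AGPAT1 to AGPAT2, AGPAT4 to AGPAT2 and MBOAT2 to MBOAT1.

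**Figure D3:**
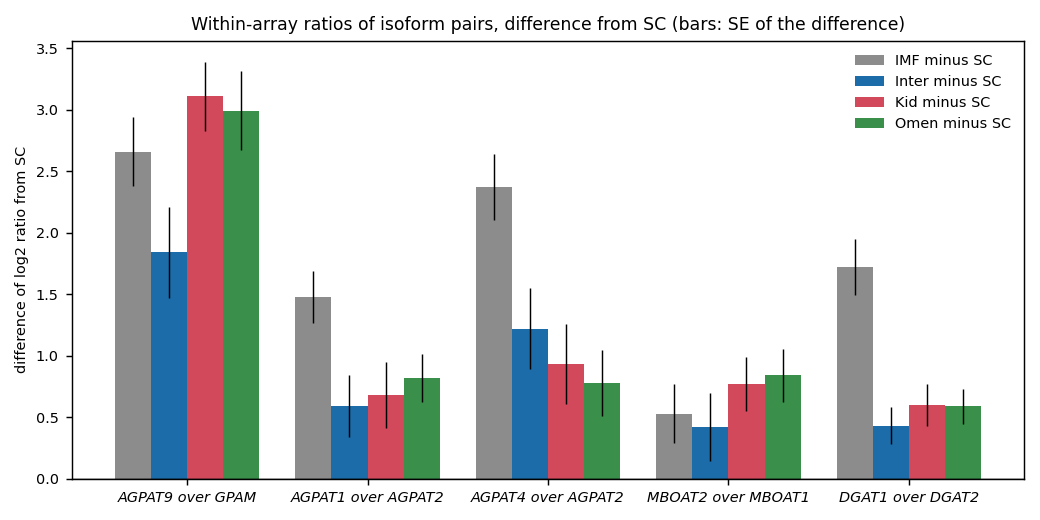
Difference from SC in the mean within-array log2 ratio of 5 isoform pairs, for each of the other 4 fat depots; bars start at 0 and error bars are the SE of the difference. The ratio of AGPAT9 to GPAM stood 1.84 to 3.11 above SC in all 4 depots.

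Of the fat depots, IMF and SC were compared with muscle, a contrast in which most of all probes differed. IMF had 9 of the 10 higher than pasture LD and 1 lower (36% and 39.3% of all probes), and SC had 7 higher and 1 lower (40.2% and 42.7%). DGAT1 was among the 9 by its main probe. Another of its probes had means of -3.64 in IMF and -3.53 over all LD arrays. The median difference over the 10 genes was 1.3 for IMF and 1.33 for SC, beside -0.04 and -0.05 over all probes. DGAT2 had the widest gap, 85.4 times higher in SC than in pasture LD (difference 6.42, SE 0.35, adjusted p = 3.8e-19) and 14.3 times higher in IMF (difference 3.84, SE 0.39, adjusted p = 3.29e-11). GPAM was 9.12 times and AGPAT2 7.40 times higher in SC than in LD. MBOAT1 was 7.02 times higher in IMF than in LD and 3.70 times in SC, with all 12 arrays of either fat above all 24 of LD.

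LPIN1 was the 1 gene of the 10 called lower in each of IMF and SC than in pasture LD. Kid, not compared with LD by a test, had a mean of -1.59. Pasture LD ran from -2.54 through -1.86 to -0.89, and all 12 SC arrays lay below all 24 of these (difference -2.43, SE 0.16, adjusted p = 8.41e-17). In IMF it was lower than in LD by 0.64 (adjusted p = 7.5e-05), a call lost with slide as a random block (-0.64, adjusted p = 0.0562). AGPAT9 in SC differed from LD by 0.07 (95% interval -0.46 to 0.60), and within scan day 1 (11 against 8 arrays) by 0.79 with a call. MBOAT2 in SC differed by -0.35 (adjusted p = 0.115). The part of muscle RNA in the IMF levels was not tested.

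In LD none of the 10 genes differed between supplement and pasture in the fit with breed as a covariate and slide as a random block (correlation within slides 0.429). There 1 of all 34227 probes was called, or 0.00292%. At an unadjusted p under 0.05 there were 2697 probes and 2 of the 10 genes, MBOAT2 and DGAT2. Without the slide block limma called 3850 probes and those same 2 genes. The median difference over the 10 genes was 0.03 beside 0.01 over all probes. Each supplement slide held 1 breed, and the study's methods name supplement samples only for the earlier slaughter, without a slaughter time in the labels. Diet, slide and slaughter time thus cannot be fully told apart.

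DGAT2 had the larger difference, -0.93 (SE 0.43, 95% interval -1.79 to -0.07, adjusted p = 0.591). Its pasture arrays were widely spread, from -0.81 through 0.97 to 3.00, and the supplement arrays, from -0.69 through 0.04 to 1, lay inside that range. The spread lay between slides. On the 6 pasture slides the DGAT2 means were 2.34, 2.27, 1.66, 0.14, 0.01 and -0.43, and on the 3 supplement slides 0.17, 0.05 and -0.01. The summed adipocyte marker level on the same pasture slides was 5.68, 5.46, 4.89, 2.37, 2.48 and 1.85, and 2.36, 2.39 and 2.28 on the same supplement slides. The 3 pasture slides with the most DGAT2 thus also had the most adipocyte marker signal, and the other 3 lay near the supplement slides in both. The part of adipocyte content in the DGAT2 difference was not tested.

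MBOAT2 was higher with supplement by 0.65 (SE 0.20, 95% interval 0.25 to 1.05, adjusted p = 0.356). Its supplement arrays ran from -4.12 through -3.22 to -2.58 and its pasture arrays from -4.76 through -3.99 to -2.69. Of the pasture slides, 5 had means of -4.34 to -3.71 and 1, of Hereford alone, had -3.05, while the supplement slides had -3.57, -3.18 and -2.96. The 12 supplement arrays were also set against only the 12 pasture arrays scanned on the same day as their breed's supplement arrays. The difference was then 0.69 and passed, in a fit that called 360 of all probes. With scan day as a block over all LD arrays it was 0.67 and did not pass (adjusted p = 0.0852), and it passed in 2 of 47 alternative settings. No other member had an adjusted p under 0.05 in the fit within those days. GPAM differed by -0.31 (95% interval -0.76 to 0.14), AGPAT9 by 0.49 (-0.58 to 1.55), AGPAT2 by -0.34 (-0.85 to 0.16), DGAT1 by 0.24 (-0.02 to 0.50), AGPAT4 by 0.21 (-0.18 to 0.60), AGPAT1 by -0.14 (-0.37 to 0.09), MBOAT1 by 0.09 (-0.43 to 0.61) and LPIN1 by -0.03 (-0.35 to 0.29).

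The same 5 isoform ratios were compared between diets over the 9 LD slides after each breed mean was subtracted, with an exact two-sided permutation test whose smallest p is 0.0238. MBOAT2 over MBOAT1 reached it, at 0.56 higher with supplement, and was 0.119 after adjustment over the 5. DGAT1 over DGAT2 was higher by 1.17 in the same exact permutation test (p = 0.0952, adjusted p = 0.179). AGPAT9 over GPAM and AGPAT4 over AGPAT2 were higher by 0.80 and 0.55 (both exact adjusted p = 0.179), and AGPAT1 over AGPAT2 by 0.21 (exact adjusted p = 0.357).

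**Figure D4:**
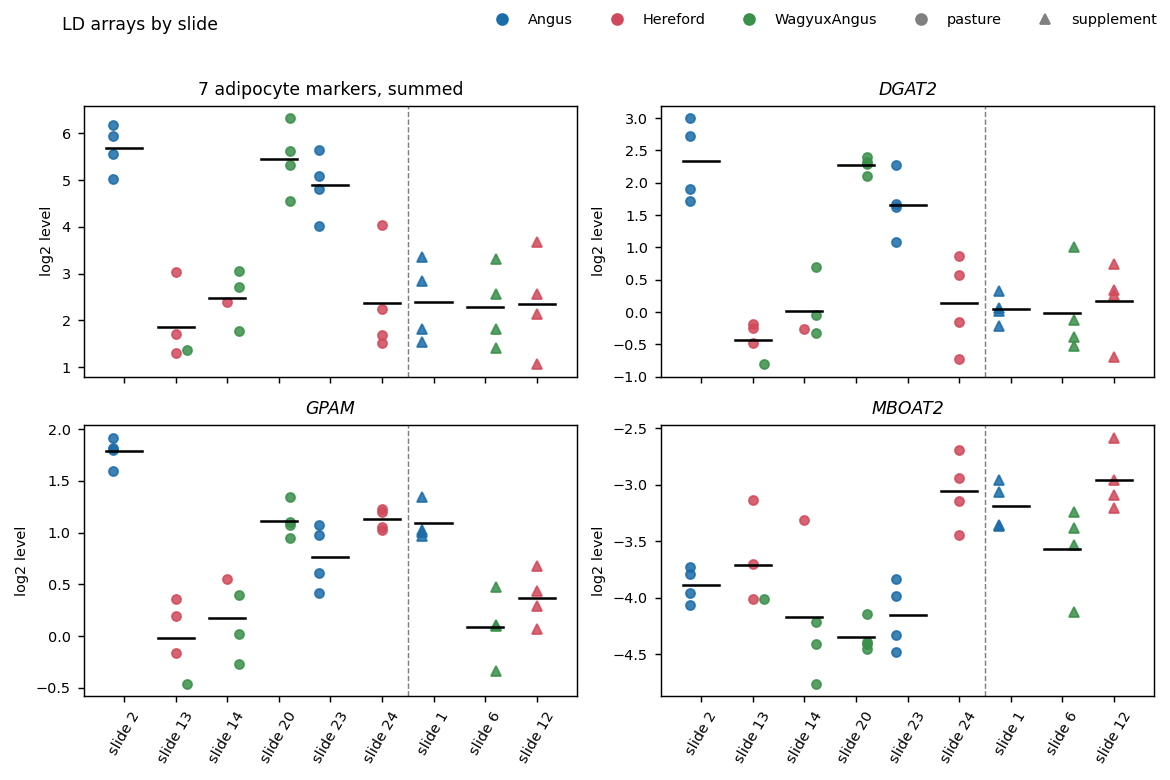
Levels in LD by slide (log2): summed signal of 7 adipocyte markers, and DGAT2, GPAM and MBOAT2; circles are pasture and triangles supplement arrays, coloured by breed, lines are slide means, and the dashed line divides the 6 pasture from the 3 supplement slides. Pasture slides with summed adipocyte levels of 4.89 to 5.68 had DGAT2 means of 1.66 to 2.34, while the remaining slides had DGAT2 means of -0.43 to 0.17.

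No breed difference passed in fat. Over the 60 fat arrays with depot as a covariate, none of the 10 differed among the 3 breeds, against 3.2% of all probes. At an unadjusted p under 0.05 there were 5665 probes and 2 of the genes, GPAM and LPIN1. GPAM was higher in WagyuxAngus than in Hereford by 0.64 (SE 0.21, adjusted p = 0.0704), with means of 3.45 ± 0.67 and 2.02 ± 0.73 (SD, n = 4 each) in IMF and 4.02 ± 0.20 and 3.90 ± 0.35 in SC. LPIN1 was lower in WagyuxAngus than in Angus by 0.58 on the log2 scale (difference -0.58, SE 0.21, adjusted p = 0.201).

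Within IMF the breed means spread most for GPAM, DGAT2 and MBOAT1. DGAT2 was 4.09 ± 0.93 in Hereford, 4.96 ± 0.86 in Angus and 5.46 ± 0.29 in WagyuxAngus, and MBOAT1 was 1.44 ± 0.30, 0.57 ± 0.37 and 0.06 ± 0.36 in the same order (SD, n = 4 each). The summed adipocyte marker level followed the DGAT2 order there, 8.27 ± 0.70, 8.56 ± 0.36 and 8.86 ± 0.34. So did the summed macrophage marker level, 1.88 ± 0.27, 2.7 ± 0.38 and 2.78 ± 0.72. The summed smooth muscle marker level followed the MBOAT1 order, 9.1 ± 0.81, 8.04 ± 0.40 and 6.91 ± 0.38. The summed endothelial marker level did as well, 4.26 ± 0.33, 3.94 ± 0.12 and 3.83 ± 0.37. The part of any of them in these values was not tested. The depot differences did not depend on breed for any of the 10 genes past the test (0% of all probes). At an unadjusted p under 0.05 there were 2512 probes and 1 gene, MBOAT1 (adjusted p = 0.563).

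In pasture LD none of the 10 differed among breeds with slide as a random block (0% of all probes), and at an unadjusted p under 0.05 there were 3371 probes and 5 genes. MBOAT2 had the smallest p of the 10 (unadjusted 0.000449, adjusted p = 0.24), with means of -3.29 ± 0.42 in Hereford, -4.02 ± 0.26 in Angus and -4.35 ± 0.23 in WagyuxAngus (SD, n = 8 arrays each, limma). Without the slide block limma called 5044 probes and 4 genes, AGPAT4, MBOAT2, LPIN1 and DGAT2. DGAT2 means were 2 in Angus, 1.07 in WagyuxAngus and -0.08 in Hereford, and the summed adipocyte marker level was 5.29, 3.84 and 2.24 in the same order, whose part in the difference was not tested. By main probes the diet difference depended on breed for AGPAT1 alone of the 10 (adjusted p = 0.036), beside 16.2% of all probes. The other AGPAT1 probe was not called in the same limma test (adjusted p = 0.597). This fit has no slide block, and since each breed has 1 supplement slide, breed and slide cannot be told apart in it. The call was lost without any of 8 single arrays, the largest adjusted p being 0.132 without 1 Angus supplement array.

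Other glycerolipid genes were measured for 28 of 37 listed. In IMF minus SC, 8 of the 28 rose and 12 fell (31.2% and 33% of all probes), with a median of -0.14. The 3 largest rises were FITM1 (2.22, SE 0.19), AGPAT5 (2.08, SE 0.19) and GPD2 (0.90, SE 0.11), with adjusted p = 3.74e-10, 9.41e-10 and 2.98e-07. FITM1 encodes a muscle protein of lipid droplet formation, AGPAT5 a mitochondrial acyltransferase and GPD2 the mitochondrial glycerol 3-phosphate dehydrogenase. FITM1 and AGPAT5 were also 4.05 and 4.08 log2 units higher in LD than in SC (differences of SC minus LD -4.05 and -4.08). The 3 largest falls were MBOAT7 (-1.77, SE 0.14), which acylates lysophosphatidylinositol, ACSL4 (-1.28, SE 0.10), which activates arachidonate, and FITM2 (-1.24, SE 0.16), a protein of lipid droplet formation in fat.

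In Inter 5 of the 28 rose and 9 fell relative to SC (21.6% and 27.2% of all probes), in Kid 7 rose and 6 fell (19.4% and 22.2%), and in Omen 4 rose and 8 fell (20.5% and 25.2%). GK, glycerol kinase, which makes glycerol 3-phosphate from free glycerol, rose by 2.04 in Kid (SE 0.41, adjusted p = 0.000302), 0.99 in Omen and 0.84 in Inter. MBOAT7 fell by 0.70, 0.97 and 0.84 in the same depots. These genes were named for Inter, Kid and Omen after their values were seen. Between supplement and pasture in LD, none of the 28 passed, and ACSL1 had the smallest adjusted p (difference -0.38, SE 0.11, limma adjusted p = 0.339).

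Across the 15 means of breed by depot, the 10 genes were set against each other by Pearson's r, as a description since the means share slides and scan days. DGAT2 and AGPAT2 had r = 0.98, AGPAT9 and LPIN1 0.88, DGAT1 and DGAT2 0.84, and GPAM and AGPAT2 0.81. MBOAT1 ran against GPAM (-0.82) and DGAT2 (-0.81), while AGPAT9 and DGAT2 had r = -0.09. Among 10397 genes, those most like AGPAT2 were CEBPA (0.985), a transcription factor of fat cell formation, and TKT (0.981), transketolase. DGAT2 was most like MGST1 (0.981) and ISOC1 (0.98). AGPAT9 was most like TTC36 (0.957) and ADRB3 (0.955), the beta 3 adrenergic receptor of fat cells, and LPIN1 was most like TCF15 (0.969) and EFNA4 (0.931).

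The remaining genes had these nearest patterns. GPAM was most like MAL2 (0.955) and HACD2 (0.954), AGPAT1 like YEATS2 (0.964) and LYRM2 (0.947), and AGPAT4 like MED26 (0.807) and RIPK4 (0.802). MBOAT1 was most like CSGALNACT1 (0.921) and CBX5 (0.916), MBOAT2 like NTRK3 (0.92) and CXORF45 (0.919), and DGAT1 like CYB561D2 (0.925) and ELOF1 (0.918).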

How the data were processed

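One-colour Agilent 4x44K bovine arrays were read from the scanner text files, which hold the processed signal intensity that the authors obtained with Agilent Feature Extraction 10.7.3.1 (per the file headers). The array design names the genome build Btau_3.1. Levels come from probes, so coordinates were used only to place EGFL8 next to AGPAT1. The deposited series table of log2 values equals the log2 median signal minus background (largest difference 8.32e-05 over 3285792 values) and was used as an alternative. Here log2 processed signal was scaled to the 75th percentile of each array, 9361 outlier spots were left out and spots of a probe were averaged. No tested spot was saturated. No 2 arrays were identical, and within groups r was 0.927 to 0.992. limma 3.58.1 (R 4.3.3) was fitted to all 34227 probes with Benjamini-Hochberg adjustment at 0.05, between 2 depots on their arrays alone. Permutation tests used scipy. Both were tested on simulated data. Replicates are samples of one group by the labels; p-values measure the spread between them, and the number of arrays limits precision.

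Probes were named from accessions through RefSeq gene names and the study's probe tables: 19903 by accession and 21452 in all. The main probes of MBOAT1 and MBOAT2 and all 3 LPIN1 probes rest on the study's naming alone. For each gene the study's probe was the main one, or else the one with the highest mean level. The study kept 1 probe per gene by the IMF and SC difference times abundance. Main probes taken from it were thus not chosen independently of that comparison or of the SC arrays. For AGPAT1 the probe fixed at the outset carries the EGFL8 accession, so the highest-mean AGPAT1 probe replaced it after this was seen. The text names all 10 genes, the 3 highest and 3 lowest called other glycerolipid genes for IMF minus SC, and the 2 genes most like each member. Members and lists were chosen with earlier results of these data known. Markers were listed for adipocytes, skeletal muscle fibres, macrophages, endothelium, mesothelium and smooth muscle. In IMF minus SC, 6 of 6 macrophage, 2 of 5 endothelial and 1 of 2 mesothelial markers were lower and 5 of 5 smooth muscle markers higher. Alternatives covered normalization, background, filters, probes, blocks and left-out arrays.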

Additional observations from a re-analysis of the deposited data

Results flagged for a closer look

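Over 209 groups of 4 to 8 arrays, 1 array stood far from the others of its group in 10 cases, where chance flags about 1 in 20 groups. In LD on supplement, an Angus array had 0.84 for AGPAT1 against 0.41 to 0.46 on the others, an Angus array 5.61 for AGPAT2 against 4.69 to 4.72, a Hereford array 3.62 for AGPAT2 against 4.47 to 4.63, and a WagyuxAngus array -1.86 for MBOAT1 against -2.42 to -2.35. In pasture LD an Angus array had -3.27 for MBOAT1 against -2.38 to -1.63. In IMF a WagyuxAngus array had 0.02 for AGPAT1 against 0.91 to 1.01. In Kid a Hereford array had -1.62 for AGPAT4 against -0.44 to -0.40, and a WagyuxAngus array 7.23 for DGAT2 against 6.77 to 6.83. In Omen an Angus array had 1.33 for MBOAT1 against -0.85 to -0.48, and a Hereford array -1.55 for LPIN1 against -1.98 to -1.96.

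The diet difference of AGPAT1 in LD differed among breeds by its main probe (limma interaction, adjusted p = 0.036). Its other probe was not called (limma interaction, adjusted p = 0.597). On the main probe supplement minus pasture was 0.17 in Angus, -0.38 in Hereford and -0.21 in WagyuxAngus. The Angus array at 0.84 is 1 of the 4 supplement arrays of that breed.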

How the results depend on the processing

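Of the counts of genes called, 405 alternative values were within 1.5 times the value given and 42 were not. Among single differences, adjusted p-values and ratios 3466 kept their direction and side of the threshold, 95 lost a call, 27 gained one and 26 changed sign. The cause was not tested for any of them, other than fewer arrays where a day or an array is left out. When scan day was a block within the 2 depots compared, the genes called went from 9 to 3 for IMF minus SC and from 9 to 0 for IMF minus Kid. They went from 7 to 2 for Omen minus SC, from 2 to 1 for Inter minus Kid (also 1 within scan day 2) and from 1 to 0 for Kid minus Omen. Over all probes the same block took the calls from 21957 to 6847, 19115 to 1694, 15654 to 1511, 5276 to 2775 and 4150 to 281 in that order. For Inter against SC or IMF this block could not be fitted, as no day is shared. With scan day over the 96 arrays 4 were called for Inter minus Kid, 2 for Inter minus Omen and 6 for Kid minus Omen (7774, 7171 and 7505 of all probes, against 5276, 4642 and 4150). In that fit 8 were called for IMF minus SC, 9 for IMF minus Kid and 6 for Omen minus SC. Beside them stood 17271, 17910 and 10499 of all probes, against 21957, 19115 and 15654 in the main fit. With slide as a random block 2 were called for Inter minus SC (6 without) and 2 for Kid minus SC (5 without), and 1 for Inter minus Kid, beside 9255 (16698 without), 9940 (14263 without) and 1148 of all probes. For Inter minus Omen (0 in the main fit) normexp, the deposited table, the highest-mean probe and the spread of 60 arrays each gave 1. Of all probes these called 5936, 4258, 4642 and 4524, against 4642 in the main fit. For Kid minus Omen (1, AGPAT9) quantile normalization gave 0, normexp 2, the highest-mean probe 2 and the spread of 60 arrays 3. Of all probes these called 3900, 3883, 4150 and 6488, against 4150 in the main fit. For Kid minus Omen the deposited table and the slide block also gave 1 (5218 and 1991 of all probes), but a lower gene. AGPAT9 was not called in either (limma adjusted p = 0.0534 and 0.26). In LD, the diet count of 0 became 2 without the slide block and 1 within each breed's scan day, chosen after seeing the data, and the breed count of 0 became 4 without the slide block. The dependence of diet on breed, 1 gene, became 0 with normexp, the deposited table or the EGFL8 probe, and 2 with a scan day block. Of all probes these called 1122, 4753, 5539 and 2970 in that order, against 5539 in the main fit. Over arrays left out in turn the count of genes ran from 0 to 3.

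The signs that turned were mostly of differences without a call. The EGFL8 probe, an alternative chosen after seeing the data, gave 1.11, 1.07, 0.67 and 0.83 for IMF minus SC, Inter, Kid and Omen and 0.16 for diet, where AGPAT1 was lower. Scan day on 2 depots gave -0.33 for AGPAT4 in IMF minus SC, 0.02 for MBOAT1 in Kid minus SC, and 0.13, 0.06 and -0.64 for GPAM, AGPAT2 and AGPAT4 in Omen minus SC. Scan day over 96 arrays gave -0.28, -0.13 and -0.14 for GPAM, AGPAT1 and MBOAT1 in Inter minus SC. Normexp gave -0.26 and -0.20 for MBOAT2 in Inter and Kid minus SC, and -0.38 and -0.09 for MBOAT2 over MBOAT1. Quantile normalization gave 0.04 for AGPAT2 in Kid and 0.02 for GPAM in Omen minus SC. The highest-mean MBOAT1 probe gave 0.43 for Kid minus SC, -0.23 for IMF minus Inter and -0.54 for MBOAT2 over MBOAT1 in Inter. All 36 LD arrays gave -0.09 for AGPAT9 in SC minus LD. LPIN1 by diet was 0 with the deposited table and ran from -0.08 to 0.01 over arrays left out in turn.

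The label number is the position on a slide. Samples of one number in other slides and groups had a median correlation of deviations of 0.012, against -0.006 for other numbers, so the number was not taken to pair arrays. Of the isoform ratios between depots, 14 passed over arrays and 0 with the means per slide, an alternative chosen after seeing the data. The replicate block gave 2 genes in place of 1 for Kid minus Omen (3858 of all probes, 4150 without) and moved no other count by over 1.5 times.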
